A study of Mus musculus with 15 samples.

Results

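The genes described here encode the replication-dependent core histones H2A, H2B, H3 and H4. Members were all protein-coding genes of GENCODE M21 (GRCm38) with a Hist1, Hist2, Hist3 or Hist4 symbol of class h2a, h2b, h3 or h4. There were 61 members among the 34989 genes with summed counts: 18 of class H2A, 18 of H2B, 12 of H3 and 13 of H4. Of these, 48 carry a Hist1 symbol, 10 a Hist2 symbol, 2 a Hist3 symbol and 1 a Hist4 symbol. Linker H1 genes are not members, and 3 pseudogenes with a matching symbol were left out.

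RNA was sequenced from 15 libraries of cultured mouse neural progenitor cells, dividing precursors of neurons and glia, which the labels give as wild type in every group. All groups were grown with FGF2, EGF and heparin, received plasmids that carry an shRNA and EGFP, and were sorted for GFP 3 days later. The 5 groups of 3 libraries received the shRNA shLINE_Orf1, shLINE_Orf2 or shLINE_MdV_I, the shRNA shLINE_Orf1 together with a full-length LINE-1 (shLINE_Orf1+LINE-1), or the control shRNA shControl. LINE-1 is a retrotransposon, and the study's design names shRNAs against its young and its old copies. The labels do not say which age shLINE_Orf2 and shLINE_MdV_I target, name no promoter for the shRNAs or the added LINE-1, and do not say whether replicates were separate cultures. All p-values therefore measure the spread between these libraries, which may be technical. LINE-1 RNA was not analysed here, so the degree of knockdown was not measured, and in bulk RNA fewer cells of a kind and less RNA per cell cannot be told apart.

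Core histone mRNAs are made mainly in S phase, when new DNA must be packed into nucleosomes. Canonical ones have no introns and no poly(A) tail. They end just after a short stem-loop that the stem-loop binding protein SLBP and the U7 snRNP use to form the 3′ end. Some core histone genes also make longer, polyadenylated RNAs that run past the stem-loop, in some cases with splicing, and such RNAs are known from cells that leave the cycle. The labels name a method of the SMART-seq2 type, which as published starts cDNA at poly(A). The levels here are those of the histone RNA that entered such libraries, not of all histone mRNA.

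The stem-loop is shown for the members on which the results turn, because it marks where a canonical histone mRNA ends. Each line is the 30 bases of the GENCODE transcript that end with the stem-loop, 5′ to 3′, and capitals mark the 16-base stem-loop.
Hist1h2ap: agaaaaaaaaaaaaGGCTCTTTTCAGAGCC
Hist1h2ao: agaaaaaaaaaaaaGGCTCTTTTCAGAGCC
Hist1h2ae: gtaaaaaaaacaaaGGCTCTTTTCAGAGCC
Hist1h4d: acccaaaaaccaaaGGCCCTTTTCAGGGCC
Hist1h2ab: ttaaccaaaacaaaGGCTCTTTTCAGAGCC
Hist1h2ac: acttcaaacccaaaGGCTCTTTTCAGAGCC
Hist3h2a: ttacagacaccaaaGGCTCTTTTCAGAGCC
Hist2h3c1: ccattccccacaaaGGCTCTTTTCAGAGCC
Hist2h3c2: ccattccccacaaaGGCTCTTTTCAGAGCC

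A stem-loop of this kind was found in the transcript models of 42 of 61 members, against 22 of 21840 other protein-coding genes (0.1%). The commonest form, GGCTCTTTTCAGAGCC, occurred in 23 members and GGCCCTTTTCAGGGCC in 7. In Hist1h2ap and Hist1h2ao the stem-loop follows a run of 12 A directly. A run of at least 12 A occurred in 3 members, the third being Hist1h2ac with 15 A far from its stem-loop, and in 9.3% of other protein-coding genes.

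The models fall into 3 kinds by where they end, a grouping made after values were seen and given as a description. An extended model runs more than 100 bases past the stem-loop, is spliced, or is longer than 1000 bases with no stem-loop found; there were 24 of these. A short model, of which there were 22, ends between 3 and 74 bases after the stem-loop. The other 15 models stop at most 1000 bases long with no stem-loop found, shown as no 3′ end in the plots. The median exonic length of all members tested was 534 bases, against 4334 bases for all genes tested. Many members are near-identical: 30 of 61 shared at least 50% of their 50-base words with other listed transcripts. Counts that the authors' estimation had to divide between such copies are uncertain. Members described below are marked where they share at least 50% of their words, and some with a smaller share are marked too.

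Of the 61 members, 57 passed the filter on low counts and were tested among 15147 genes. The H2A gene Hist1h2aa, the H2B gene Hist1h2ba, the H2A gene Hist2h2ab and the H4 gene Hist1h4m did not pass. Hist1h4m was listed at 0 counts in every library, and it shares 89.8% of its words with other transcripts. The mean level was at least 10 CPM (counts scaled by library size and TMM factor) for 10 members and under 1 CPM for 29.

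The histone RNA counted came mostly from few genes. Hist1h2ap alone (H2A; chr13:21833026-21833507, minus strand) held 68.9% of the core histone counts, Hist1h2ae 10.4%, Hist1h2bc 5.76% and Hist1h4d 4.25%. Per kilobase of exon, the order was Hist1h2ap (3190 CPM per kb), Hist1h2ae (333), Hist1h2bc (111), Hist1h3i (103), Hist1h4d (83.9), Hist3h2ba (49.9), Hist1h2ab (42.4), Hist3h2a (20.7), Hist1h4i (20.2) and Hist2h2aa1 (19.2). The order is by the mean over all 15 libraries. The leading genes per class were therefore Hist1h2ap for H2A, Hist1h2bc for H2B, Hist1h3i for H3 and Hist1h4d for H4. Hist1h2ap shares 93.1% of its words with Hist1h2ao, Hist1h3i 87.6% with other copies led by Hist1h3h, Hist1h2ab 58% with Hist1h2ai, and Hist2h2aa1 89.2% with other copies led by Hist2h2aa2. Hist1h2ao has the same 30 bases as Hist1h2ap up to the end of its stem-loop, and it averaged 3.24 CPM where Hist1h2ap averaged 1540 CPM, a division that rests on the authors' estimation.

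The libraries held 39208923 to 51075758 gene counts. Of 6 progenitor markers, Fabp7, Vim, Nes and Sox2 were at 141 CPM or more in all libraries, while Hes5 (21.6 to 53 CPM) and Pax6 (16.8 to 21.1 CPM) were lower. Single markers of other cell types were also high in all libraries, Map2 of neurons (307 to 489 CPM), Aldh1l1 of astrocytes (223 to 316 CPM) and Olig2 of the oligodendrocyte lineage (504 to 936 CPM). The other markers of neurons were at most 15.5 CPM, of astrocytes 20.1 CPM and of the oligodendrocyte lineage 26.9 CPM, and those of microglia 0.244 CPM. Of the markers of endothelium, Pecam1 was at 20.9 to 48.5 CPM and Cdh5 at most 0.0387 CPM. The proliferation genes Top2a, Ccnb1 and Mki67 ranged from 353 to 538, 436 to 646 and 51.9 to 116 CPM. Apart from the other libraries stood shLINE_Orf1 replicate 1 and shControl replicate 2. Summed over all members, the core histone level was 4410, 1910 and 2250 CPM with shLINE_Orf1, 1820, 2090 and 2090 CPM with shLINE_Orf2, 1680, 1820 and 1940 CPM with shLINE_MdV_I, 1960, 2100 and 2300 CPM with shLINE_Orf1+LINE-1, and 1560, 3450 and 2090 CPM with shControl. The 4410 CPM of shLINE_Orf1 replicate 1 and the 3450 CPM of shControl replicate 2 lie above all 13 other libraries, and shControl replicate 1 is the lowest of all.

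Those 2 libraries were highest for most members. The first was highest of 15 for 31 of 57 members (54.4%, against 26.5% of all genes), and the second for 15 (26.3%, against 8.33%). They also had the largest shares of counts in Lars2 (5.88% and 4.62%, against 2.6% to 3.82% elsewhere), and mRNAs of the mitochondrial genome took 3.61% and 2.02% of their counts against 1.36% to 1.97% elsewhere. Across all genes, their deviation from the mean of the libraries was correlated with transcript length at -0.382 and -0.29, against -0.122 to 0.28 in the other libraries. The 0.28 was that of shControl replicate 1, which was also lowest of all libraries for 15 of 57 members. It was kept where the 2 libraries that stand apart were left out. In shLINE_Orf1 replicate 1 and shControl replicate 2, genes of DNA replication and S phase had a median deviation of 0.1 and -0.01 on the log2 scale. Core histone genes had 1 and 0.67 in these 2 libraries. Other histone genes were high in them too, with a median deviation of 1.24 and 0.58 for linker H1 genes and of 0.49 and 0.36 for replacement histone variants. The part of RNA length, mitochondrial RNA or Lars2 in the histone level was not tested beyond the correction for length given below. For each comparison that holds either library, the calls and the median of the members are therefore given with and without both. The splits by kind of model and the gene lists are given with all libraries only.

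**Figure D1:**
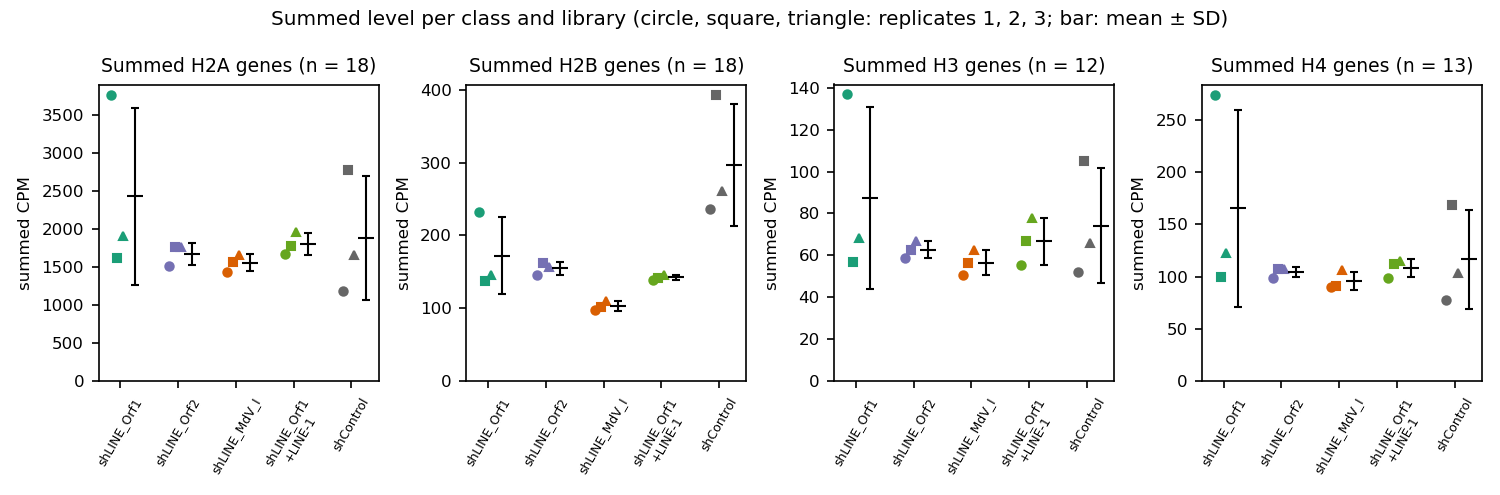
Summed level in CPM of the H2A, H2B, H3 and H4 genes in each library; symbols are replicates 1, 2 and 3 and bars are the mean ± SD of 3 libraries. In all 4 classes shLINE_Orf1 replicate 1 and shControl replicate 2 are the highest of their own group, and the H2B sum is 97.4 to 110 CPM with shLINE_MdV_I against 237 to 393 CPM with shControl.

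By class, the summed level with shLINE_MdV_I overlapped that with shControl for H2A, H3 and H4. H2A genes summed to 1440 to 1660 CPM with shLINE_MdV_I and 1190 to 2780 CPM with shControl. H3 genes summed to 50.6 to 62.6 CPM with shLINE_MdV_I and 51.9 to 105 CPM with shControl, and H4 genes to 90.4 to 106 CPM with shLINE_MdV_I and 77.3 to 169 CPM with shControl. H2B genes, in which Hist1h2bc prevails, were the exception. Their sum was 233, 138 and 145 CPM with shLINE_Orf1, 145, 162 and 157 CPM with shLINE_Orf2, 97.4, 102 and 110 CPM with shLINE_MdV_I, 139, 142 and 146 CPM with shLINE_Orf1+LINE-1, and 237, 393 and 261 CPM with shControl. All 12 libraries with an shRNA against LINE-1 lay below all 3 control libraries, and the shLINE_MdV_I libraries lay lowest.

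Across the 5 groups together, 3 core histone genes differed by edgeR's quasi-likelihood test after Benjamini-Hochberg adjustment over all genes: Hist1h2bc (adjusted p = 0.00204), Hist3h2a (0.0338) and Hist2h3c1 (0.0339). Of all genes tested, 0.944% were called in that test. Hist1h2ac (0.0615) and Hist2h3c2 (0.123) were next among the members.

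Hist1h2bc encodes an H2B protein and is the most abundant H2B gene here. Its model, at chr13:23684199-23692908 on the plus strand, is spliced from 2 exons, is 1156 bases long and holds no stem-loop of the kind searched. The count table lists 1 transcript of it, so a short and a long form could not be separated. Hist1h2bc shares 30.1% of its words with other transcripts, led by Hist1h2bg. Its level was 169, 102 and 105 CPM with shLINE_Orf1, 98.1, 114 and 111 CPM with shLINE_Orf2, and 59.3, 61.5 and 69.8 CPM with shLINE_MdV_I. It was 102, 102 and 104 CPM with shLINE_Orf1+LINE-1, against 194, 323 and 207 CPM with shControl. No library with an shRNA against LINE-1 reached the lowest control library, and the 3 shLINE_MdV_I libraries lay below the 12 others.

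**Figure D2:**
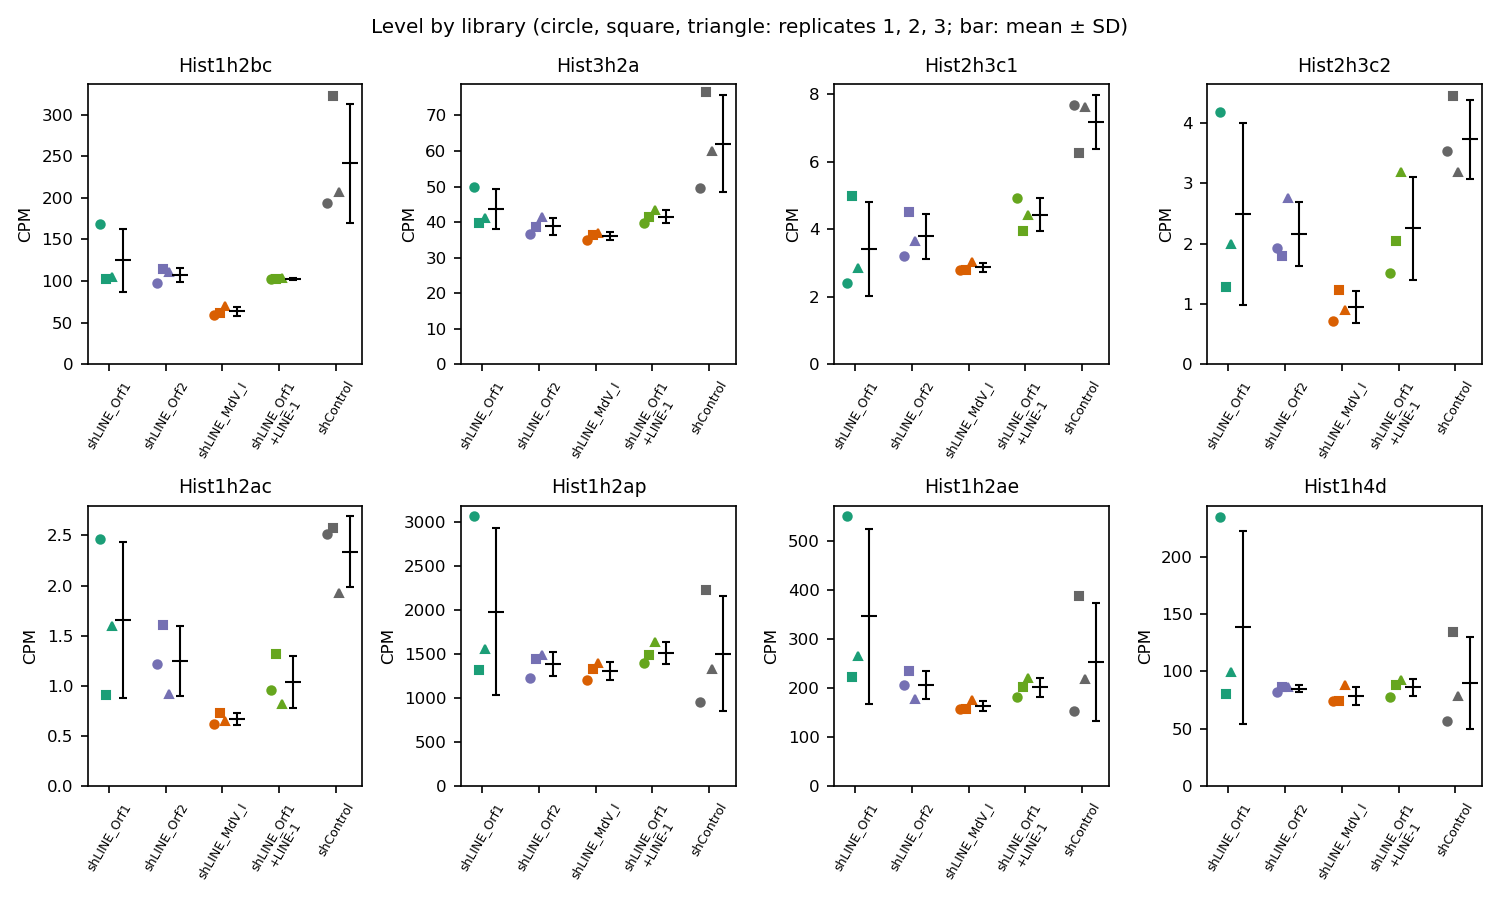
Level in CPM of 8 members in each library; symbols are replicates 1, 2 and 3 and bars are the mean ± SD of 3 libraries. Hist1h2bc is at most 169 CPM in all libraries with an shRNA against LINE-1 and at least 194 CPM in all with shControl, whereas Hist1h2ap, Hist1h2ae and Hist1h4d overlap between shLINE_MdV_I and shControl.

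Set against shControl, the shRNA shLINE_MdV_I gave the most changes among core histone genes. Of 57 members, 5 fell and 0 rose, where 0.337% of all genes tested were called lower and 0.257% higher. Hist1h2bc fell by 1.93 on the log2 scale (SE 0.2), to 63.5 ± 5.5 CPM with shLINE_MdV_I against 241 ± 71 CPM with shControl (SD, n = 3 each; adjusted p = 0.000388 by edgeR's quasi-likelihood test after Benjamini-Hochberg adjustment, as throughout). The others that fell were the H2A genes Hist3h2a and Hist1h2ac and the H3 genes Hist2h3c1 and Hist2h3c2. All 5 have extended models.

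Hist3h2a (chr11:58954685-58956830, plus strand) has a model that runs 1643 bases past its stem-loop. Its level was 34.9, 36.5 and 36.9 CPM with shLINE_MdV_I, against 49.7, 76.6 and 59.9 CPM with shControl. The groups did not overlap, and the log2 fold change was -0.78 (SE 0.14; adjusted p = 0.0152 by edgeR's quasi-likelihood test). It shares 31.5% of its words with Trim17, a neighbour on the same chromosome, so that its counts are less certain. With the other shRNAs its level was 50, 39.6 and 41.2 CPM (shLINE_Orf1), 36.6, 38.5 and 41.3 CPM (shLINE_Orf2) and 39.7, 41.4 and 43.4 CPM (shLINE_Orf1+LINE-1). Of these 9 libraries, shLINE_Orf1 replicate 1 alone reached the lowest control library.

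The H3 genes Hist2h3c1 (chr3:96246685-96248509, plus strand) and Hist2h3c2 (chr3:96238108-96239127, minus strand) share the 30 bases shown above. Hist2h3c1 had 2.78, 2.8 and 3.03 CPM with shLINE_MdV_I, against 7.67, 6.26 and 7.63 CPM with shControl. The groups were far apart, with a log2 fold change of -1.32 (SE 0.23; adjusted p = 0.0152 by edgeR's quasi-likelihood test). Hist2h3c1 shares 34.7% of its words with other transcripts, led by Hist2h3c2. Its transcripts Hist2h3c1-201 and Hist2h3c1-202 averaged 7.02 and 0.177 CPM with shControl, and 2.81 and 0.0647 CPM with shLINE_MdV_I. With shLINE_Orf1 they averaged 1.77 and 1.65 CPM, so the division between them is uncertain. Hist2h3c2 had 0.719, 1.24 and 0.9 CPM with shLINE_MdV_I, against 3.54, 4.45 and 3.19 CPM with shControl. It was lower in each shLINE_MdV_I library than in any control library (log2 fold change -1.97, SE 0.39; adjusted p = 0.0311 by edgeR's quasi-likelihood test), and 63.5% of its words are shared with other transcripts, Hist2h3c1 the first among them.

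Hist1h2ac (H2A; chr13:23681467-23683948, minus strand) lies head to head with Hist1h2bc. It was at 0.619, 0.731 and 0.649 CPM with shLINE_MdV_I, against 2.51, 2.57 and 1.93 CPM with shControl. The groups did not overlap, and the log2 fold change was -1.81 (SE 0.33; adjusted p = 0.0211 by edgeR's quasi-likelihood test), close in size to that of Hist1h2bc. The start sites of both genes are 250 bases apart. The promoter of Hist1h2ac from RefSeq (GRCm38.p6, chr13:23683910-23684209, minus strand) is shown because it spans the whole gap and the annotated start of Hist1h2bc, and capitals mark the motif CCAAT, the TATA box as TATAAA and the octamer ATTTGCAT, each on either strand.
Hist1h2ac: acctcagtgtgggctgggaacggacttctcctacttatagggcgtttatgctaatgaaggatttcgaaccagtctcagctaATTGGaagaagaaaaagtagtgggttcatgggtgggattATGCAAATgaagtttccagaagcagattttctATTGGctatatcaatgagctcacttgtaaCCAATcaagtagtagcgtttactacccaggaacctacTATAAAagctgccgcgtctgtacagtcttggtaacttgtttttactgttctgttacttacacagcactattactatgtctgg
For comparison, the promoter of the most abundant member, Hist1h2ap (RefSeq, GRCm38.p6, chr13:21833426-21833725, minus strand), with the same marks:
Hist1h2ap: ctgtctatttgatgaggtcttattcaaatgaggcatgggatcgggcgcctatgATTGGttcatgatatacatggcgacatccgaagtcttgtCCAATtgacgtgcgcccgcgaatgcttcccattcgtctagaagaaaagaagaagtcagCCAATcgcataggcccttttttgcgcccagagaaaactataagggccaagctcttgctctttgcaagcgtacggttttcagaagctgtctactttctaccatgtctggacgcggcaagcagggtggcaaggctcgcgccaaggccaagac

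The Hist1h2ac window holds CCAAT at 3 places, TATAAA at 1 and ATTTGCAT at 1, and the Hist1h2ap window holds CCAAT at 3 places and neither of the others. This octamer is known from H2B promoters. Promoters of 300 bases were listed for 56 of 61 members (57 promoters), Hist1h2bc not among them. On either strand, with no overlap between these motifs, CCAAT was present in 84.2% of member promoters against 37.3% of 32794 others, TATAAA in 54.4% against 13.5%, and ATTTGCAT in 24.6% against 1.7%.

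Head-to-head pairs of an H2A and an H2B gene with start sites at most 500 bases apart numbered 12. In the pair of Hist1h2ac and Hist1h2bc both genes passed the test with shLINE_MdV_I against shControl. In no other pair did either gene pass. Hist1h2ae and Hist1h2bg, with 175 bases between them, had log2 fold changes of -0.63 and -0.35, and Hist2h2ac and Hist2h2be had -0.59 and -0.26. The abundant Hist1h2ap had -0.2 and its partner Hist1h2br, which averaged 1.18 CPM and shares 88.7% of its words with Hist1h2bq, had -1.11.

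The other members did not pass the test with shLINE_MdV_I, but most had values below 0. Of 57 members, 52 had a negative log2 fold change (52.4% of all genes), with a median of -0.45 against -0.01 for all genes. At an unadjusted p under 0.05, 15 members were lower and 0 higher, against 4.52% lower and 4.12% higher of all genes. The next members by p were the H2B gene Hist1h2be (log2 fold change -1.18; adjusted p = 0.0669 by edgeR's quasi-likelihood test) and the H4 gene Hist1h4h (-1.83; adjusted p = 0.0669). By kind of model, 24 of 24 extended members were negative (median -0.64, 5 called) and 20 of 21 short ones (median -0.41, 0 called). Of the 12 that stop short of a stem-loop, 8 were negative (median -0.4, 0 called). This split was not computed without both libraries that stand apart, where only 38 of 57 members were negative (median -0.18). Summed over the 24 extended members, the level was 384, 392 and 430 CPM with shLINE_MdV_I, against 532, 1040 and 652 CPM with shControl. Of this, Hist1h2bc alone held 59.3, 61.5 and 69.8 CPM with shLINE_MdV_I, and 194, 323 and 207 CPM with shControl. With Hist1h2bc taken away, these sums overlap between shLINE_MdV_I and shControl, so they stand apart only with this gene included.

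The abundant Hist1h2ap, for which the model is short, did not share this difference. It had 1200, 1330 and 1400 CPM with shLINE_MdV_I, against 950, 2230 and 1330 CPM with shControl. The control libraries lay on both sides of the shLINE_MdV_I libraries, and the log2 fold change was -0.2 (SE 0.29; adjusted p = 0.927 by edgeR's quasi-likelihood test). Hist1h2ae had 158, 158 and 175 CPM with shLINE_MdV_I, against 153, 388 and 219 CPM with shControl. Hist1h4d had 73.8, 73.7 and 87.8 CPM with shLINE_MdV_I, against 56.5, 134 and 78.6 CPM with shControl. Both genes have extended models, so the overlap was not limited to short models. In both genes the lowest library of all was shControl replicate 1, as for the sum of all members.

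Without shLINE_Orf1 replicate 1 and shControl replicate 2, 8 members fell with shLINE_MdV_I, against 1.41% of all genes: the 5 above, Hist1h2be, Hist1h4i and Hist1h4h. The fold change of Hist1h2bc was then -1.66 (SE 0.08; adjusted p = 6e-09 by edgeR's quasi-likelihood test), and the median over members was -0.18, with 38 of 57 negative. After a correction of each library for RNA length, 7 members fell, against 0.555% of all genes: Hist1h2bc, Hist1h2ac, Hist2h3c1, Hist2h3c2, Hist3h2a, Hist1h4h and Hist1h4i, and the median was -0.3. Leaving out each library in turn kept Hist1h2bc called (adjusted p from 0.000667 to 0.00623). Without any 1 of the shLINE_MdV_I libraries it was the only member called, and Hist3h2a then had an adjusted p of 0.0759 to 0.136, Hist1h2ac 0.0968 to 0.163, Hist2h3c1 0.0656 to 0.108 and Hist2h3c2 0.0946 to 0.211. Without shControl replicates 1, 2 and 3 in turn, 2, 3 and 4 members were called. No share of all genes was computed for the fits that leave out 1 library. The library descriptions end in 12 for shLINE_MdV_I replicates 2 and 3 and shLINE_Orf1 replicate 1 and in 1 for all others, a number the labels do not explain. The shLINE_MdV_I library that ends in 1 had 59.3 CPM of Hist1h2bc, below both that end in 12. With that number as a covariate 7 members were called lower, against 0.614% of all genes. Hist1h2bc was among them and Hist2h3c1 was not.

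Set against shControl, shLINE_Orf2 changed 1 member. Hist1h2bc fell to 108 ± 8.3 CPM with shLINE_Orf2, against 241 ± 71 CPM with shControl (SD, n = 3 each; log2 fold change -1.17, SE 0.2; adjusted p = 0.0331 by edgeR's quasi-likelihood test). Of all genes, 0.112% were called lower and 0.0792% higher. Before adjustment, 11 members were lower and 0 higher at p under 0.05, against 3.22% lower and 3.78% higher of all genes. Hist3h2a had a log2 fold change of -0.68 (adjusted p = 0.0639) and Hist2h3c1 one of -0.92 (adjusted p = 0.149, both by edgeR's quasi-likelihood test). Hist2h3c1 was at 3.2, 4.52 and 3.66 CPM with shLINE_Orf2, below every control library. Negative values were found for 51 of 57 members, with a median of -0.39 against -0.01 for all genes.

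The call of Hist1h2bc with shLINE_Orf2 was lost without shControl replicate 2 (adjusted p = 0.0868), without shControl replicate 3 (0.0843) and without any 1 of the shLINE_Orf2 libraries (0.104 to 0.178). Without shLINE_Orf1 replicate 1 and shControl replicate 2 together, Hist1h2bc (-0.9, SE 0.08; adjusted p = 3.65e-05 by edgeR's quasi-likelihood test), Hist3h2a (-0.5; 0.00673) and Hist2h3c1 (-1.01; 0.0157) fell, against 0.902% of all genes. Only 31 of 57 members were then negative.

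With shLINE_Orf1, 0 members passed the test against shControl, where 0.0396% of all genes were called lower and 0.139% higher. Unadjusted, 5 members were lower and 0 higher at p under 0.05, against 5.2% lower and 5.33% higher of all genes, and DESeq2 and limma-voom called 3 members lower each, where they called 0.446% and 2.03% of all genes lower. Hist1h2bc came nearest, with a log2 fold change of -0.95 (SE 0.2; adjusted p = 0.0735 by edgeR's quasi-likelihood test), and Hist2h3c1 had -1.07 (adjusted p = 0.0768). The level of Hist2h3c1 was 2.41, 4.99 and 2.85 CPM with shLINE_Orf1, below all 3 control libraries. The members as a whole went both ways, with 26 of 57 negative and a median of 0.15. The 12 members that stop short of a stem-loop had a median of 0.33 and the 24 extended ones one of -0.18. This split was not computed without the libraries that stand apart.

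The libraries that stand apart bear on this comparison most, since each group holds 1 of them. Without both, the median was -0.16 and 34 of 57 members were negative. Hist1h2bc (-0.96, SE 0.09; adjusted p = 5.09e-05 by edgeR's quasi-likelihood test) and Hist3h2a (-0.44; adjusted p = 0.0413) then fell, against 0.253% of all genes. Leaving out shLINE_Orf1 replicate 1 alone gave a median of -0.41 and 1 call. Leaving out shControl replicate 1 alone gave a median of -0.17 and 0 calls, and leaving out shLINE_Orf1 replicate 2 alone gave 1 call. For these fits no share of all genes was computed.

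With shLINE_Orf1+LINE-1, 1 member fell against shControl, where 0.066% of all genes were called lower and 0.0726% higher. Unadjusted p-values under 0.05 were found for 10 lower and 0 higher members, against 4.54% lower and 4.23% higher of all genes. Hist1h2bc was at 103 ± 1.3 CPM with shLINE_Orf1+LINE-1, against 241 ± 71 CPM with shControl (SD, n = 3 each; log2 fold change -1.24, SE 0.2; adjusted p = 0.0214 by edgeR's quasi-likelihood test). Hist3h2a had -0.58 (adjusted p = 0.111) and Hist1h2ac -1.18 (adjusted p = 0.217), both with groups that did not overlap. Of 57 members, 46 were negative, with a median of -0.21. The call was lost without shControl replicate 2 (adjusted p = 0.0558), without shControl replicate 3 (0.0735) and without any 1 of the shLINE_Orf1+LINE-1 libraries (0.143 to 0.164). Without both libraries that stand apart, Hist1h2bc (-0.96; adjusted p = 1.31e-05 by edgeR's quasi-likelihood test) and Hist3h2a (-0.4; 0.0294) fell, against 0.987% of all genes. The median over members was then 0.06.

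**Figure D3:**
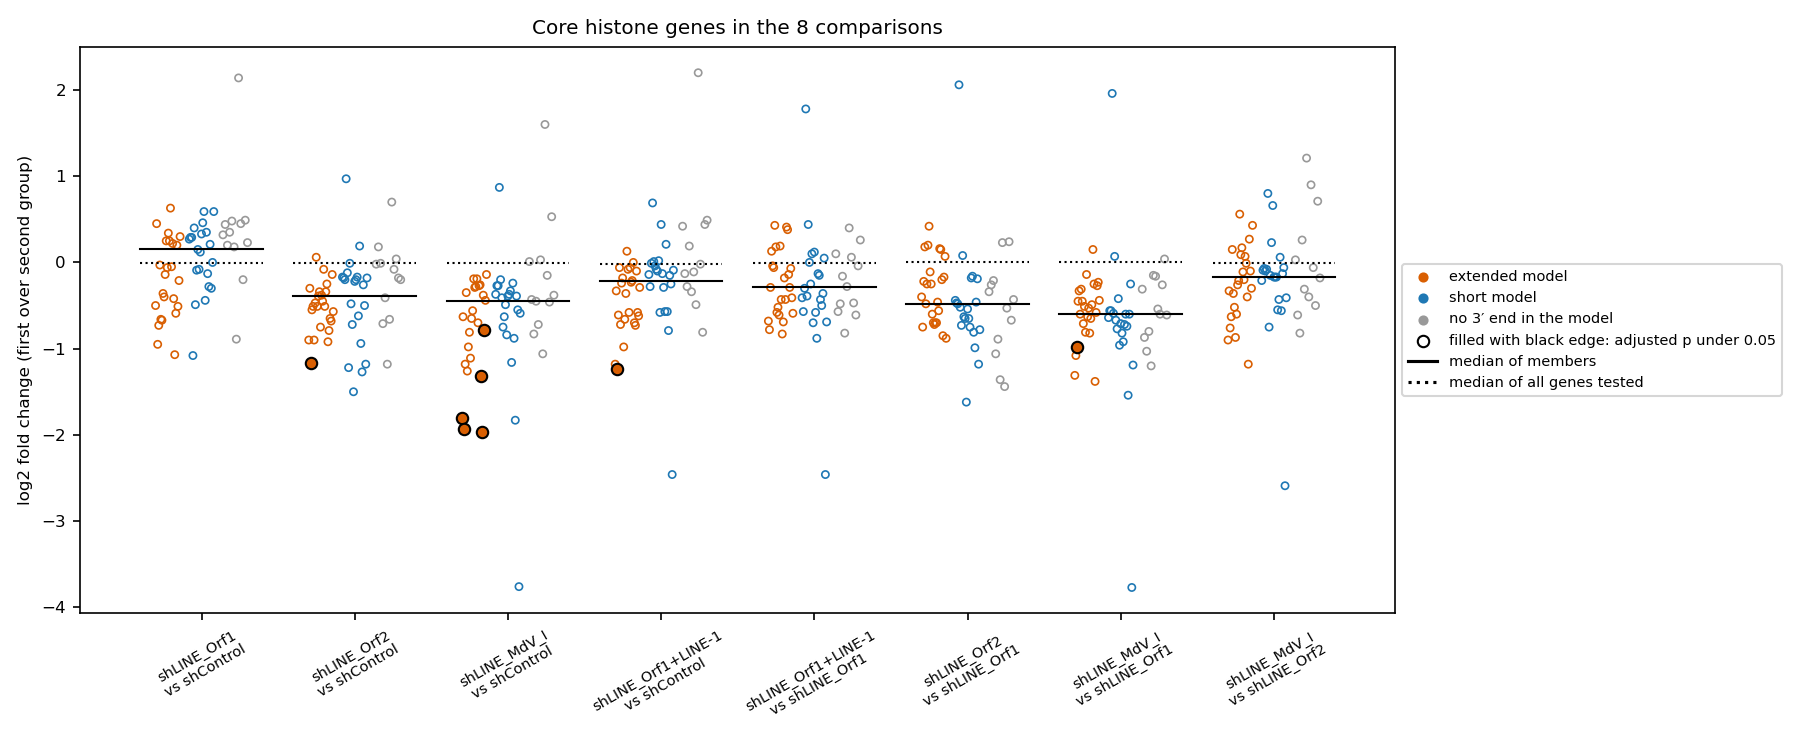
Log2 fold change of each of the 57 members tested (points, by kind of transcript model) in the 8 comparisons, with the median of members (solid line) and of all genes (dotted line). All filled points, which mark an adjusted p under 0.05, are extended models below 0, and the shLINE_MdV_I comparison with shControl holds 5 of them.

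The direct test of whether added LINE-1 changed core histone genes is the comparison of shLINE_Orf1+LINE-1 with shLINE_Orf1. In it 0 members were called, as were 0% of all genes, by edgeR's quasi-likelihood test, while DESeq2 called 0 members, and limma-voom called 1 lower and 1 higher, where it called 0.918% of all genes lower and 1.7% higher. At an unadjusted p under 0.05, 4 members were lower and 1 higher, against 6.07% lower and 5.04% higher of all genes. Hist1h2bc averaged 103 ± 1.3 CPM with shLINE_Orf1+LINE-1 and 125 ± 38 CPM with shLINE_Orf1 (SD, n = 3 each; log2 fold change -0.29, SE 0.19; adjusted p = 0.474). The member with the smallest p was the H2B gene Hist2h2be, at 4.42, 4.72 and 4.44 CPM with shLINE_Orf1+LINE-1, against 3.65, 3.43 and 3.14 CPM with shLINE_Orf1. These groups did not overlap, but the test did not pass (log2 fold change 0.41, SE 0.15; adjusted p = 0.422). The H3 gene Hist1h3d had -0.52 and Hist1h2ae had -0.78, each with an adjusted p of 0.422. The median of members was -0.29 with all libraries and 0.11 without both libraries that stand apart.

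Among the shRNAs, shLINE_MdV_I was below shLINE_Orf1 for 1 member. Hist1h2bc had a log2 fold change of -0.98 (SE 0.2; adjusted p = 0.035 by edgeR's quasi-likelihood test), where 0.436% of all genes were called lower and 0.251% higher. At an unadjusted p under 0.05, 15 members were lower and 0 higher, against 9.34% lower and 7.04% higher of all genes. The call was lost without shLINE_Orf1 replicate 1 alone (adjusted p = 0.0822) and without any 1 of the shLINE_MdV_I libraries (0.0753 to 0.219). Without both libraries that stand apart, shLINE_Orf1 replicate 1 and shControl replicate 2, it was called (-0.7; adjusted p = 0.000471). Leaving out shLINE_Orf1 replicate 2 gave 6 calls, a fit for which no share of all genes was computed. Against shLINE_Orf1, 53 of 57 members were negative with shLINE_MdV_I, with a median of -0.6, which was -0.17 without both libraries.

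Against shLINE_Orf2, no member passed with shLINE_MdV_I, where 0.0132% of all genes were called lower and 0.099% higher. At an unadjusted p under 0.05, 4 members were lower and 0 higher, against 2.95% lower and 2.5% higher of all genes, and DESeq2 and limma-voom called 1 member lower each, where they called 0.386% and 1.7% of all genes lower. For limma-voom the 1 of 57 members (1.75%) is at that background. Hist1h2bc was at 59.3 to 69.8 CPM with shLINE_MdV_I and 98.1 to 114 CPM with shLINE_Orf2 (log2 fold change -0.76, SE 0.2; adjusted p = 0.243 by edgeR's quasi-likelihood test). Without both libraries that stand apart, neither of which is in these groups, the same log2 fold change of -0.76 had an adjusted p of 6.21e-05, since the spread is estimated over all groups. Between shLINE_Orf2 and shLINE_Orf1, 0 members and 0% of all genes were called. At an unadjusted p under 0.05, 7 members were lower and 1 higher, against 5.87% lower and 5.55% higher of all genes, while DESeq2 called 0 members and limma-voom 1 lower (1.75%, against 2.36% of all genes). The smallest p belonged to the H2B gene Hist1h2bm, at 0.213 ± 0.092 CPM with shLINE_Orf2 and 0.662 ± 0.26 CPM with shLINE_Orf1 (SD, n = 3 each; log2 fold change -1.62; adjusted p = 0.294). The H4 gene Hist1h4i followed (-0.46; adjusted p = 0.434).

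**Figure D4:**
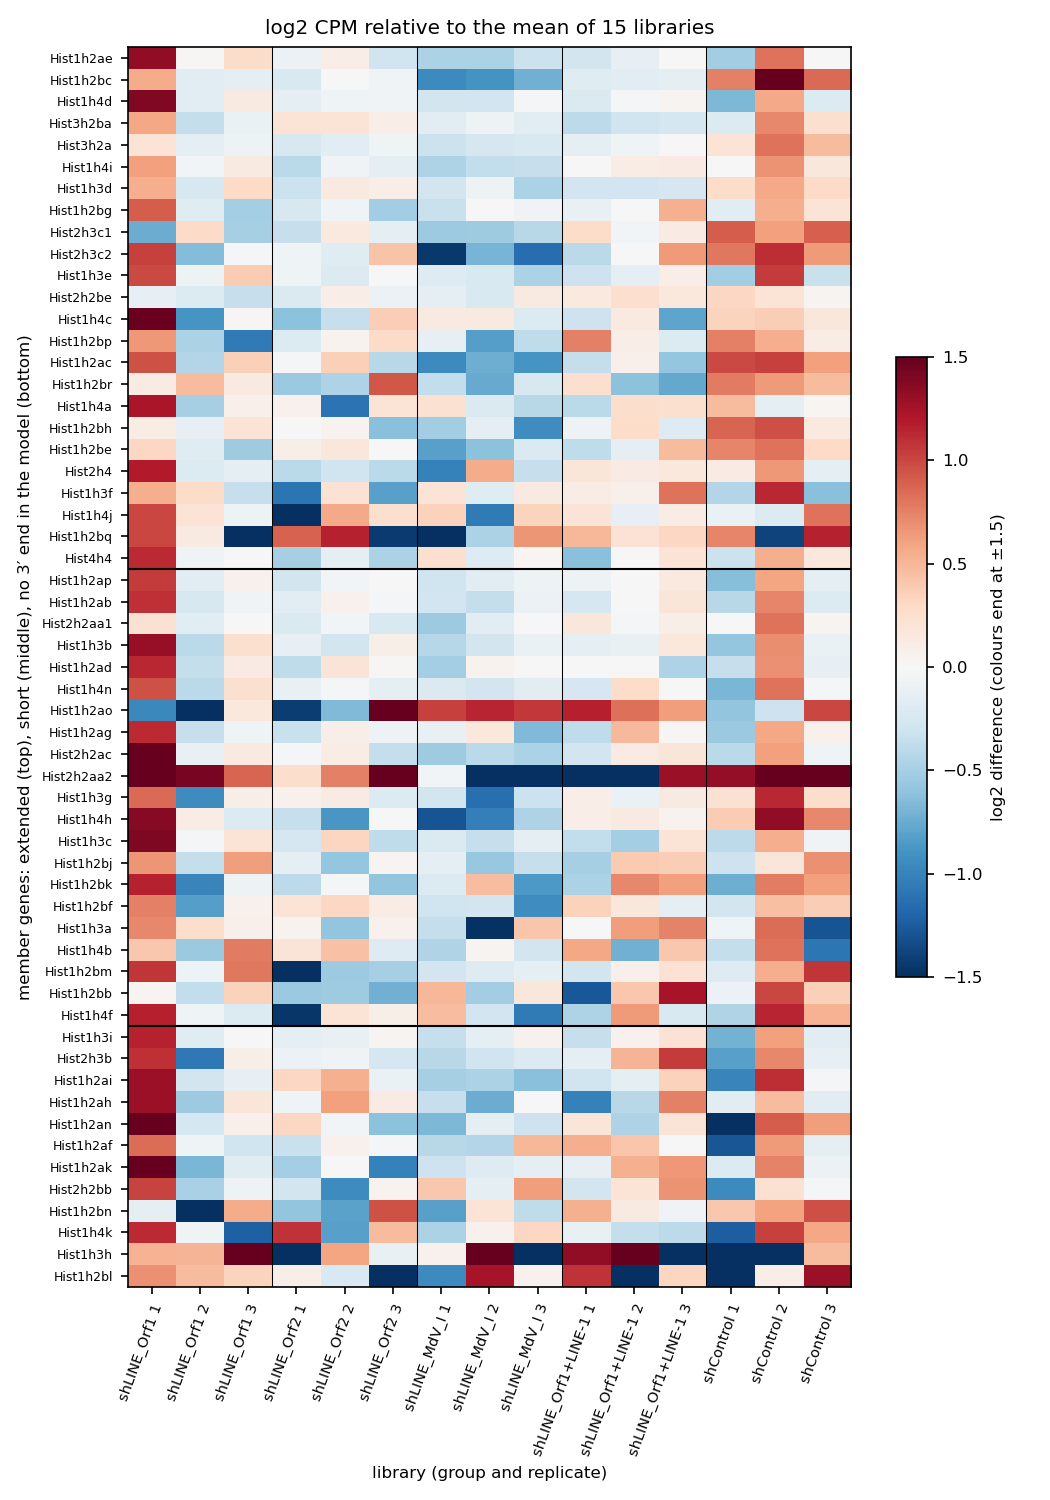
Log2 CPM of the 57 members tested in each library, relative to the mean of the 15 libraries, with members ordered by kind of model and, within it, by level per kilobase. The columns of shLINE_Orf1 replicate 1 and shControl replicate 2 are red for most members, and Hist1h2bc, Hist2h3c1, Hist2h3c2 and Hist1h2ac are red in all 3 shControl columns and blue in all 3 shLINE_MdV_I columns.

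From low to high, the mean level of Hist1h2bc was 63.5 CPM with shLINE_MdV_I, 103 CPM with shLINE_Orf1+LINE-1, 108 CPM with shLINE_Orf2, 125 CPM with shLINE_Orf1 and 241 CPM with shControl. The libraries of the neighbours shLINE_Orf1, shLINE_Orf2 and shLINE_Orf1+LINE-1 overlapped. The 4 comparisons with shControl share its libraries, so that they are not independent of each other. For Hist3h2a the means were 43.6, 38.8, 36.1, 41.5 and 62.1 CPM with shLINE_Orf1, shLINE_Orf2, shLINE_MdV_I, shLINE_Orf1+LINE-1 and shControl. For Hist2h3c1 the mean was 3.41 CPM with shLINE_Orf1, 3.79 CPM with shLINE_Orf2, 2.87 CPM with shLINE_MdV_I, 4.43 CPM with shLINE_Orf1+LINE-1 and 7.19 CPM with shControl. In both genes the control mean was the highest and the shLINE_MdV_I mean the lowest.

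Genes around the core histones were followed by 6 lists, with all libraries included throughout. Of 60 genes of DNA replication and S phase tested, 0 were called in any of the 8 comparisons by edgeR's quasi-likelihood test. With shLINE_MdV_I against shControl 23 of them were negative, with a median of 0.04, and Ccne1 (cyclin E1) had a log2 fold change of 0.11. In that comparison 2 were lower and 2 higher at an unadjusted p under 0.05, against 4.52% lower and 4.12% higher of all genes. DESeq2 called 0 of the 60 there. By limma-voom 1 was called lower and 1 higher, against 1.21% and 1.31% of all genes. With shLINE_Orf1+LINE-1 against shControl 10 of the 60 were negative, with a median of 0.15, and 14 were higher and 0 lower at an unadjusted p under 0.05, against 4.23% higher of all genes. There DESeq2 called 3 higher and limma-voom 10 higher, where they called 1% and 2.11% of all genes higher. With shLINE_Orf2 against shLINE_Orf1 46 of the 60 were negative, with a median of -0.13. At an unadjusted p under 0.05, 13 were lower and 1 higher, against 5.87% lower and 5.55% higher of all genes. In that comparison DESeq2 called 1 lower, and limma-voom called 10 lower and 1 higher. They called 0.566% and 2.36% of all genes lower. The count of 0 for this list thus depends on the tool.

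Of 22 genes of mitosis, 0 were called in any comparison by edgeR's quasi-likelihood test. With shLINE_MdV_I against shControl their median was 0, and Plk1, a kinase of mitosis, had 215 ± 7.4 CPM with shLINE_MdV_I and 192 ± 13 CPM with shControl (SD, n = 3 each). At an unadjusted p under 0.05, 2 of them were higher and 0 lower in that comparison, against 4.12% higher of all genes. DESeq2 called 0 of them there and limma-voom 1 higher, against 1.31% of all genes for limma-voom. Other comparisons were less even for this list. With shLINE_Orf1 against shControl 17 of 22 were positive (median 0.1) and with shLINE_Orf2 against shControl 19 of 22 (median 0.15), and in each 7 were higher and 0 lower at an unadjusted p under 0.05, against 5.33% and 3.78% higher of all genes. With shLINE_MdV_I 15 of 22 were negative against shLINE_Orf1 (median -0.17) and 20 of 22 against shLINE_Orf2 (median -0.13), with 5 and 1 lower at an unadjusted p under 0.05, against 9.34% and 2.95% lower of all genes. DESeq2 called 0 of the 22 in these comparisons. Against shControl, limma-voom called 3 higher with shLINE_Orf1, 2 with shLINE_Orf2 and 2 with shLINE_Orf1+LINE-1, against 2.02%, 1.29% and 2.11% of all genes. With shLINE_MdV_I it called 3 lower against shLINE_Orf1 and 2 lower against shLINE_Orf2, against 5.18% and 1.7% of all genes. In any comparison, edgeR's quasi-likelihood test called 0 of 38 genes of histone mRNA processing and 0 of 27 of histone chaperones. It also called 0 of 9 replacement histone variants, which are made outside S phase too. With shLINE_MdV_I against shControl, 1 lower and 1 higher of the 38 and of the 9 had an unadjusted p under 0.05, and 0 of the 27. Of all genes 4.52% were lower and 4.12% higher. DESeq2 called 0 of these 3 lists in that comparison. There limma-voom called 1 processing gene higher and 1 chaperone lower, against 1.31% and 1.21% of all genes. DESeq2 called most, 1 chaperone lower and 1 higher, with shLINE_Orf1+LINE-1 against shControl, against 0.563% and 1% of all genes. The most for limma-voom was with shLINE_MdV_I against shLINE_Orf1, with 3 chaperones lower, 1 processing gene lower and 2 higher. It called 5.18% of all genes lower and 5.92% higher there.

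Of 7 linker H1 genes tested, edgeR's test called 1 lower in each of the 4 comparisons with shControl and in that of shLINE_MdV_I with shLINE_Orf1. At most 0.436% of all genes were called lower in these. The gene was Hist1h1c in each, which encodes a linker histone and is not a member here. It stood at 39.6 ± 4 CPM with shLINE_MdV_I and 145 ± 27 CPM with shControl (SD, n = 3 each; log2 fold change -1.87, SE 0.17; adjusted p = 0.000134 by edgeR's quasi-likelihood test). The size was near that of the core histone genes Hist1h2bc (-1.93) and Hist1h2ac (-1.81) in the same comparison. Other H1 genes differed in some comparisons. With shLINE_MdV_I against shLINE_Orf1, 6 of the 7 were lower at an unadjusted p under 0.05 (median -0.88), against 9.34% of all genes. There DESeq2 called 2 and limma-voom 5 lower, where they called 1.76% and 5.18% of all genes lower. That comparison holds shLINE_Orf1 replicate 1, where the median deviation of H1 genes was 1.24, against 0 and 0.16 in replicates 2 and 3. With shLINE_Orf1 against shControl, 5 of the 7 were positive (median 0.43). Values without the libraries that stand apart were not computed for H1 genes. Against shControl, limma-voom also called Hist1h1d lower with shLINE_MdV_I and with shLINE_Orf1+LINE-1. Among replacement variants, H2afx, the variant that is phosphorylated at DNA breaks, had -0.29 (adjusted p = 0.352) and H2afy2, a macroH2A, 0.28 (adjusted p = 0.269).

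The authors' deposited table of a mixed model for young LINE-1 lists 41 of the members among 17921 genes. By the authors' deposited table, 20 of these members had a negative estimate, against 39.1% of all genes. By the authors' deposited table, 0 members had a p-value under 0.05, against 2.66% of all genes, the smallest was 0.0707 for Hist1h3c, and the adjusted p-value was 1 for every gene.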

How the data were processed

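The authors deposited expected counts, which are estimated read counts, for each transcript in each library, without normalization. The submitters' processing notes name cutadapt, RSEM and the build mm10 with no versions; the annotation and settings were not given in the sources used here. Per the labels, libraries were of the SMART-seq2 type, and nothing states whether strand was kept, so overlapping genes on opposite strands cannot be told apart. Of 111462 transcripts, 110203 were matched to GENCODE M21 (GRCm38) by identifier without version and summed to 34989 genes, rounded to whole numbers. The other 1259 and 1 blank row, together 0.583% to 0.637% of a library, were left out.

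The second table, a mixed model of young LINE-1, holds per the file headers an estimate on an unnamed scale, its error, a t score, a p-value and an adjusted p-value, all the authors' own. The samples behind it were not stated.

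Genes were filtered with filterByExpr (minimum count 10), libraries scaled with TMM, and 1 model of 5 groups was fitted with edgeR's quasi-likelihood method (robust), with 8 contrasts and a test of all groups. A gene was called at a Benjamini-Hochberg adjusted p under 0.05 over 15147 genes. The common biological coefficient of variation was 0.158, and every pair of replicates differed beyond counting noise (chi-square per degree of freedom 7.32 to 261). A prior count of 2 was used for log2 CPM. The tests were run on simulated data first. Members, lists, libraries named as standing apart and alternatives were chosen with earlier results of these data known. Text names members called anywhere, the 10 highest per kilobase, the highest of each class and the 3 with the smallest p in each comparison, with other genes of a list only where called or among its 2 smallest p over all groups. Trim17, the pair partners and those in alternatives were named after their values were seen.

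Alternatives were RLE scaling, no scaling factor, other filters, DESeq2, a fit of only the groups compared, limma-voom with quality weights, a replicate block, the number that ends the library description as a covariate, a length offset, protein-coding transcripts only, leaving out each library, leaving out both libraries that stand apart, and near-identical members summed; the last was added after seeing the data. R 4.3.3, edgeR 4.0.16, limma 3.58.1, DESeq2 1.42.0, Python 3.11.15, pandas 2.3.3, numpy 2.4.6 and matplotlib 3.10.9 were used.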

Additional observations from a re-analysis of the deposited data

How the results depend on the processing

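Hist1h2bc with shLINE_MdV_I against shControl was called under 19 of 19 alternatives (adjusted p at most 0.00955). The other calls of that comparison kept their direction under 19 alternatives and were called under 12 (Hist2h3c2), 14 (Hist1h2ac and Hist2h3c1) and 15 (Hist3h2a). Hist1h2bc in the comparisons of shLINE_Orf2 and of shLINE_Orf1+LINE-1 with shControl was called under 12 of 19, and in that of shLINE_MdV_I with shLINE_Orf1 under 13. Where a member lost its call, the cause was not tested. Counts of members called and medians are given below in the order shLINE_Orf1, shLINE_Orf2, shLINE_MdV_I and shLINE_Orf1+LINE-1 against shControl, then shLINE_Orf1+LINE-1 and shLINE_Orf2 against shLINE_Orf1, then shLINE_MdV_I against shLINE_Orf1 and against shLINE_Orf2. With all libraries the counts were 0, 1, 5, 1, 0, 0, 1 and 0. They were 3, 3, 9, 3, 0, 0, 6 and 1 with DESeq2, and 3, 5, 9, 7, 2, 1, 5 and 1 with limma-voom, which called 1 member higher. Of all genes, DESeq2 called 0.446%, 0.623%, 0.984%, 0.563%, 0.099%, 0.566%, 1.76% and 0.386% lower in these comparisons and limma-voom 2.03%, 1.23%, 1.21%, 1.45%, 0.918%, 2.36%, 5.18% and 1.7%, so that some of these member counts lie at or near the background. Shares for DESeq2 are over the genes to which it gave an adjusted p. They were 2, 2, 7, 3, 0, 0, 1 and 1 with the length offset, 2, 3, 8, 2, 0, 0, 1 and 1 without the 2 libraries standing apart, and 1, 2, 7, 1, 0, 0, 9 and 1 with the last number of the description as a covariate, where at most 0.601%, 1.41% and 6.11% of all genes were called lower. The test of all 5 groups called 3 members, and under these alternatives 9, 13, 7, 7 and 5. In that test 0.944% of all genes were called with all libraries. The share was not computed under these alternatives, so their counts have no background beside them. With no scaling factor 1 member was called with shLINE_Orf1 and 2 with shLINE_Orf2, and with no filter 2 with shLINE_Orf2, all against shControl. With a fit of only the groups compared, 0 were called with shLINE_Orf2 and with shLINE_Orf1+LINE-1 against shControl and 0 with shLINE_MdV_I against shLINE_Orf1, but 1 against shLINE_Orf2. No share of all genes was computed for the fits with no scaling factor, with no filter or with only the groups compared.

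The median of shLINE_Orf1 against shControl (0.15) was -0.11 with limma-voom, -0.19 with the covariate, -0.08 with the length offset and -0.16 without the 2 libraries standing apart. The median of shLINE_Orf1+LINE-1 without both libraries was 0.06 against shControl and 0.11 against shLINE_Orf1, and against shLINE_Orf1 it was 0.01 with the length offset. The median of shLINE_MdV_I against shControl was -0.91 with the covariate. Without both libraries it was -0.17 against shLINE_Orf1, and that of shLINE_Orf2 against shLINE_Orf1 was -0.05. Without the most abundant member, Hist1h2ap, the summed level averaged 879, 617, 499, 612 and 863 CPM with shLINE_Orf1, shLINE_Orf2, shLINE_MdV_I, shLINE_Orf1+LINE-1 and shControl.

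Leaving out each library in turn gave 0 to 1, 0 to 2, 1 to 4, 0 to 2, 0 to 0, 0 to 0, 0 to 6 and 0 to 0 members called, and 1 to 6 in the test of all groups. These counts have no share of all genes beside them, since none was computed. The medians ranged from -0.41 to 0.35, -0.50 to -0.25, -0.67 to -0.18, -0.37 to 0.06, -0.53 to 0.09, -0.70 to -0.06, -0.83 to -0.18 and -0.20 to -0.09. The median turned round without shLINE_Orf1 replicate 1 (-0.41) and without shControl replicate 1 (-0.17) for shLINE_Orf1 against shControl, without shControl replicate 2 (0.06) for shLINE_Orf1+LINE-1 against shControl, and without shLINE_Orf1 replicate 1 (0.09) for shLINE_Orf1+LINE-1 against shLINE_Orf1. With fewer libraries the test has fewer degrees of freedom.

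The correlation of same-numbered deviations ran from -0.271 to 0.18 and was over 0.1 in 3 of 30 pairs. With 3 libraries per group and 2 libraries that stand apart, this cannot show whether a replicate number marks a shared culture or day. With a replicate block, 0, 0, 4, 0, 0, 0, 0 and 0 members were called and 1 in the test of all groups. The share of all genes called under the block was not computed. The direction of Hist1h2bc was as before under the block (-1.92 with shLINE_MdV_I against shControl; adjusted p = 0.00276 by edgeR's quasi-likelihood test).

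Members at few counts limit what these libraries can show: 29 of 61 averaged under 1 CPM. Near-identical copies limit it further. Summing those linked by at least 80% shared words (54 units in place of 61) moved no count of calls by over 1.5 times. No member called in a comparison with all libraries was in a summed unit. The summing therefore cannot show how reads shared between copies bear on these calls.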
